A study of Mus musculus with 12 samples.

Results

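The clustered Hox genes were followed through mouse primordial germ cells (PGCs), which later give rise to eggs and sperm. They were taken by name, as every row called Hoxa, Hoxb, Hoxc or Hoxd followed by a number, which gave 39 of the 22552 rows in each of 3 stage tables and 16 of the 16394 rows in a knockout table. The 39 genes lie in 4 clusters: HoxA with 11 genes on chromosome 6, HoxB with 10 on chromosome 11, HoxC with 9 on chromosome 15 and HoxD with 9 on chromosome 2. By paralogue number, which counts the genes along each cluster, 8 were anterior (1 to 3), 15 central (4 to 8) and 16 posterior (9 to 13).

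Messenger RNA was sequenced from PGCs of C57BL/6 embryos in 12 libraries. Wild-type libraries came from embryonic day 9.5 (E9.5, 2), E11.5 (2) and E13.5 (3 titled E13.5m and 3 titled WT, whose labels give no sex). Cells of genotype Tet1 -/- (Tet1-KO, 2 libraries) were also taken at E13.5; Tet1 encodes an enzyme that oxidises methylated cytosine in DNA. The authors deposited 1 pooled FPKM value per group (fragments per transcript length and per mapped total), so no spread between libraries can be shown, and sequencing depth is unknown. A further group, E13.5f, appears in the stage tables but in none of the sample titles, and is named here as in those tables. Whether the libraries of a group were made from separate embryos is not stated in the labels, and the p-values therefore reflect variation among these libraries that may be technical.

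Hox genes encode homeodomain transcription factors that give cells of the trunk, hindbrain, limbs and genital tract their position along the body axis. Within a cluster they are switched on in the order in which they lie, anterior paralogues first, and they are held silent elsewhere by Polycomb group proteins. Early PGCs arise from posterior mesoderm-like cells in which Hox genes are being activated, and germ cells then shut down that somatic programme, while the hindgut, mesentery and gonad through which PGCs pass express Hox genes of their own.

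Hox RNA was low in every group. The highest level of any Hox gene in any column was 3.29 FPKM, for Hoxa10 at E11.5. Of the 39 genes, 7 were listed at 0 in every column that holds them (Hoxa6, Hoxb1, Hoxb5, Hoxc4, Hoxc11, Hoxd11 and Hoxd13), 19 were above 0 but under 1 FPKM throughout, and 13 reached 1 FPKM in some column. At E9.5, 10 Hox genes (25.6%) were at 1 FPKM or more, against 47.3% of all rows. That count was 1 (2.56%) at E11.5, 3 (7.69%) at E13.5f and 1 (2.56%) at E13.5m, while the share of all rows stayed between 47.1% and 50.1% in those columns. The summed level of the 39 genes was 21.6 FPKM at E9.5, 6.39 FPKM at E11.5, 8.36 FPKM at E13.5f and 5.09 FPKM at E13.5m. These sums come from separately scaled tables: the same E11.5 column differs between tables by constant factors of 0.870 and 0.891. In pooled RNA, fewer cells expressing a gene and less RNA per cell cannot be told apart.

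**Figure D1:**
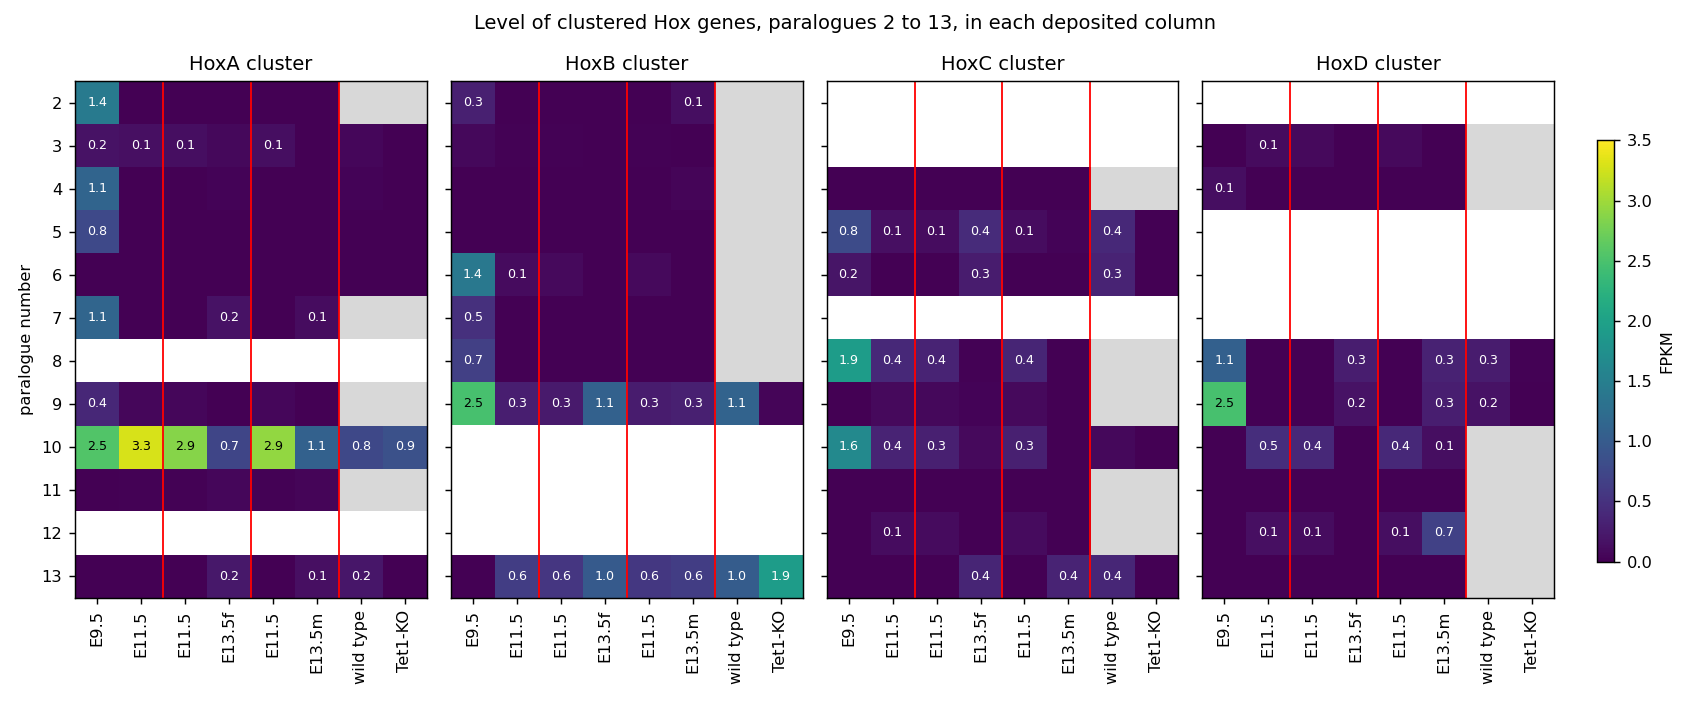
Level of the clustered Hox genes of paralogues 2 to 13, in FPKM by colour, with paralogue number on the vertical axis and the 8 deposited columns on the horizontal axis; red lines separate the 4 tables. Numbers are printed from 0.1 FPKM upwards, white rows have no gene of that number in the cluster, and grey cells are genes not listed in the knockout table. The E9.5 column holds 10 genes at 1 FPKM or more, and Hoxa10 is the 1 gene at that level at E11.5.

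The libraries carried germ cell RNA throughout. All 14 listed germ cell markers, among them Pou5f1 (795 FPKM at E9.5, 696 at E11.5) and Dppa3 (1274 and 1514 FPKM), were above 1 FPKM in every column, and their summed level was between 3412 and 5966 FPKM. Markers of other cells were present as well, and their part in the Hox values was not tested. At E9.5 the 13 blood and macrophage markers summed to 2177 FPKM, mostly embryonic globins, with Csf1r, Lyz2, Ptprc and Hbb-b1 listed at 0; at E11.5 they summed to 34.0 FPKM. The 13 markers of hindgut and other epithelium summed to 109 FPKM at E9.5 and 54.2 FPKM at E11.5, with 4 listed at 0 in each, Pax2 and Shh among them in both. Of 15 mesenchyme markers, 8 were listed at 0 at E9.5, among them Col1a2, Col3a1, Prrx1 and Osr1. The list summed to 232 FPKM there and 244 FPKM at E11.5, mostly from Sparc and Vim. Of 17 gonadal soma markers, 12 were listed at 0 at E9.5 and 2 (Foxl2 and Gata4) at E11.5, with sums of 3.29 and 7.01 FPKM. Summed levels of 8 neural and 6 endothelial markers were 12.6 and 0.246 FPKM at E9.5 and 31.8 and 12.1 FPKM at E11.5. Between E9.5 and E11.5 the deposited test called 5 of 10 tested blood and 2 of 8 tested epithelial markers lower. It called 2 of 2 tested endothelial and 1 of 5 tested neural markers higher. Of all tested rows 1.92% were called lower and 3.71% higher. Of the 14 germ cell markers 3 were called higher and 0 lower: Dazl (2.24 to 355 FPKM), Ddx4 (10.3 to 176 FPKM) and Mael (4.58 to 70.4 FPKM).

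**Figure D2:**
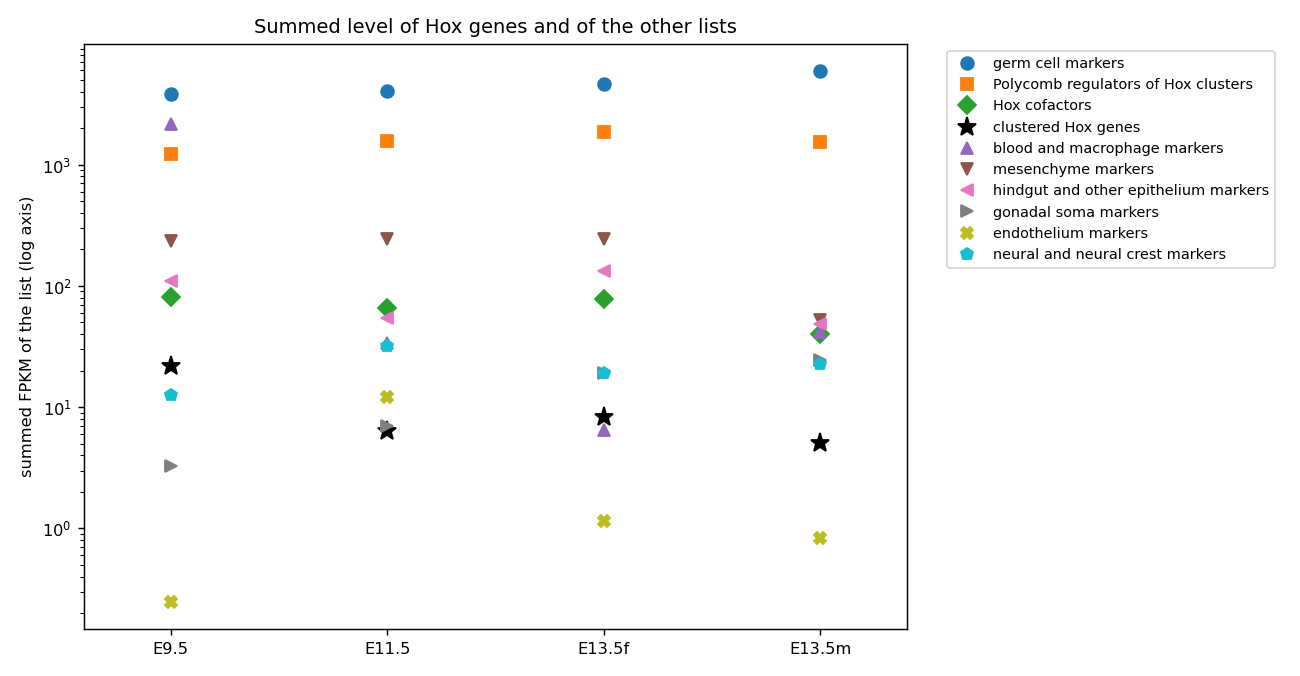
Summed FPKM (log axis) of the 39 clustered Hox genes (black stars) and of lists of regulators, cofactors and cell type markers in 4 groups, each point 1 pooled value and E13.5 taken from its own table. The Hox sum went from 21.6 FPKM at E9.5 to 6.39 FPKM at E11.5, while the germ cell markers stood at 3806 and 4066 FPKM.

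Promoter sequences were looked at for some of the genes named below. RefSeq promoter windows of 250 bases before the start (GRCm38.p6) were held for 22 of the 39 genes, in 24 windows. No window was held for Hoxb9, the gene called in the knockout. Windows are shown for Hoxa10, the gene called between E11.5 and E13.5m, at both of its listed starts. The other is Hoxd1, the Hox gene with the highest level at E13.5f, which was called in no table. Each runs 5′ to 3′ along the gene's strand, and capitals mark CG dinucleotides, the bases at which DNA methylation and its oxidation by Tet enzymes take place.
Hoxa10 (chr6:52234940-52235189, minus strand): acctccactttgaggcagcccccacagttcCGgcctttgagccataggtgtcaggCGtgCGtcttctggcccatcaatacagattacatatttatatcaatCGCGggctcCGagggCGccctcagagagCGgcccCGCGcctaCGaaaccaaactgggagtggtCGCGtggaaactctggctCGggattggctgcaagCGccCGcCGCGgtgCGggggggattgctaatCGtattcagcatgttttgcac
Hoxa10 (chr6:52240855-52241104, minus strand): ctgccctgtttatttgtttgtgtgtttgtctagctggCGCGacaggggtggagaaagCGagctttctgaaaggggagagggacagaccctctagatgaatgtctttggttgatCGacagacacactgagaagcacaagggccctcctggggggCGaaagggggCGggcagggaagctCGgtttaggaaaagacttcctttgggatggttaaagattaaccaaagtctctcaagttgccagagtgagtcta
Hoxd1 (chr2:74762730-74762979, plus strand): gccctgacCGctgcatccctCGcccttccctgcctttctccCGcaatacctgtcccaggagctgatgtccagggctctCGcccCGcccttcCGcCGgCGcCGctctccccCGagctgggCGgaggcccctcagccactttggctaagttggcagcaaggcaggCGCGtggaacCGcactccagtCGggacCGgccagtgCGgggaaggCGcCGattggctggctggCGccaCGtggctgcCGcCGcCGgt
The upper Hoxa10 window holds 20 CG dinucleotides, the other Hoxa10 window 7 and the Hoxd1 window 24. Over the 24 Hox windows the median was 12.5 (2 to 35), against 6 over 32851 windows of all genes, with quartiles of 2 and 16. In all, 19 of the 24 Hox windows lay above the median of all windows, and 31.5% of all windows held at least as many CGs as the median Hox window. On either strand, TATAAA occurred in 4 Hox windows (16.7%) and in 12.4% of all windows. TTTATN, letters that caudal-type (Cdx) proteins bind and that can overlap TATAAA, occurred in 9 Hox windows (37.5%) and in 37.2% of all windows. These matches describe the letters and do not show binding.

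The first comparison set migrating PGCs at E9.5 beside PGCs of the early gonad at E11.5. At E9.5 the Hox RNA came mostly from central genes and from paralogues 9 and 10. Of the 10 genes at 1 FPKM or more, 9 had a paralogue number of 4 or more, but only 8 of all 39 genes are numbered lower. By position, 12.5% of anterior, 33.3% of central and 25% of posterior genes reached 1 FPKM at E9.5. Of the 9 genes numbered 11 to 13, 0 were above 0. The 15 central genes summed to 9.72 FPKM at E9.5 and 0.650 FPKM at E11.5, and 11 of them were above 0 at E9.5 against 3 at E11.5. The 8 anterior genes summed to 2.38 and 0.276 FPKM, with 5 and 3 above 0. The 16 posterior genes summed to 9.55 and 5.47 FPKM, with 5 and 10 above 0, and Hoxa10 made up 3.29 FPKM of the E11.5 sum. Without Hoxa10, all Hox genes together summed to 19.1 FPKM at E9.5 and 3.11 FPKM at E11.5. No single Hox gene passed the test: of 18 genes with a completed Cuffdiff test, 0 were called in the authors' deposited table at a q-value of 0.05 or under, against 5.63% of all tested rows. Another 21 had no completed test, 11 of which were listed at 0 in both groups.

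At an unadjusted p under 0.05, 3 of the 18 tested genes were lower at E11.5 and 0 were higher, beside 5.39% and 14.4% of all tested rows. The genes that completed a test are those with enough reads in a group, here mostly at E9.5, so these counts are a description. Hoxb9, which patterns thoracic vertebrae and ribs (chromosome 11, 96132643 to 96137907, build mm9), stood at 2.48 FPKM at E9.5 and 0.298 FPKM at E11.5, a log2 ratio of -3.06 ± 1.2 (SE), with p = 0.0111 and q = 0.117 in the authors' deposited table. Hoxb6, a central gene of the trunk, stood at 1.40 and 0.105 FPKM, a log2 ratio of -3.74 ± 1.61 (SE), with p = 0.0203 and q = 0.161 in the authors' deposited table. Hoxd9, which patterns the lumbosacral region and proximal limb (chromosome 2, 74535819 to 74538265), stood at 2.49 FPKM at E9.5 and was listed at 0 at E11.5, with p = 0.0400 and q = 0.226 in the authors' deposited table. None of the 3 passed the threshold, and the SEs of Hoxb9 and Hoxb6 were wide. Genes that reached 1 FPKM in each group had a median log2 ratio of 0.32 in this table, and relative to it the ratios of Hoxb9 and Hoxb6 were -3.38 and -4.05.

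Levels at E11.5 were below those at E9.5 in 20 Hox genes and above them in 8, out of 28 above 0 in a group, whereas 31.2% of all such rows in the table were lower at E11.5 and 68.8% were higher. On the log2(FPKM + 1) scale the median change of the 39 genes was -0.02, with 11 of them at 0 in both groups, beside 0 for all rows. Listed above 0 at E9.5 and at 0 at E11.5 were 12 genes, a pattern found in 2.11% of all rows. Besides Hoxd9 they included the anterior gene Hoxa2, which gives the second branchial arch its identity, at 1.45 FPKM at E9.5. The central genes Hoxa7, Hoxa4 and Hoxd8 stood at 1.14, 1.13 and 1.08 FPKM at E9.5 and also belonged to the 12. The others were Hoxa5, Hoxb2, Hoxb7, Hoxb8, Hoxc6, Hoxd1 and Hoxd4, at 0.126 to 0.767 FPKM. The 2.11% is no like share, because 47.3% of all rows were at 1 FPKM or more at E9.5, against 25.6% of the Hox genes. Hoxc8, a gene of lower thoracic identity and forelimb motor neurons, stood at 1.93 and 0.407 FPKM (q = 0.271 in the authors' deposited table). Hoxc10, a gene of lumbar vertebrae and hindlimb motor neurons, stood at 1.65 and 0.352 FPKM (q = 0.359 there).

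In the other direction, 7 genes were listed at 0 at E9.5 and above 0 at E11.5, a pattern found in 9.34% of all rows, and 6 of them were posterior: Hoxb13, Hoxd10, Hoxd12, Hoxc12, Hoxc9 and Hoxa11. The highest was Hoxb13, a gene of the tail and prostate (chromosome 11, 96055674 to 96057913), at 0.637 FPKM at E11.5 with q = 0.284 in the authors' deposited table. Hoxd10 followed at 0.458 FPKM (q = 0.267 there), and the remaining 5, with anterior Hoxd3, were at 0.0221 to 0.140 FPKM. Hoxa10, which patterns lumbar vertebrae and the uterus (chromosome 6, 52181195 to 52190853), stood apart from the other genes that were high at E9.5. It was at 2.55 FPKM at E9.5 and 3.29 FPKM at E11.5, a log2 ratio of 0.37 ± 0.64 (SE), with q = 0.800 in the authors' deposited table, and 0.05 relative to the table median. By cluster, HoxA summed to 7.59 FPKM at E9.5 and 3.53 at E11.5, HoxB to 5.41 and 1.06, HoxC to 4.59 and 1.10 and HoxD to 4.07 and 0.703.

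**Figure D3:**
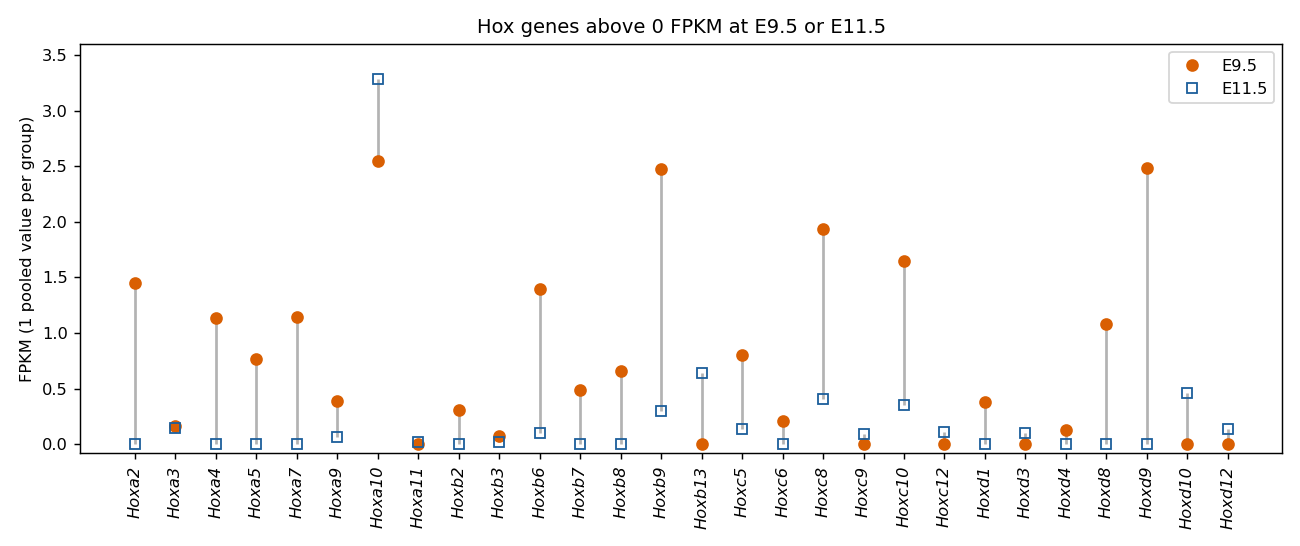
FPKM at E9.5 (filled circles) and E11.5 (open squares) of the 28 Hox genes above 0 in either group, ordered by cluster and paralogue number, with 1 pooled value per group and no error available for a level. In 20 genes the square lies below the circle, and Hoxa10 stays at the top with 2.55 and 3.29 FPKM.

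Some rows cannot be fully separated from their neighbours. The tables give Hoxa3, Hoxa4, Hoxa5 and Hoxa6 the same merged locus as 2700086A05Rik (chromosome 6, 52119060 to 52163596, mm9), and Hoxd3 and Hoxd4 share a locus with 1700109F18Rik and Mir10b (chromosome 2, 74548100 to 74586328). Hoxa11 shares its locus with its antisense transcript Hoxa11as (chromosome 6, 52192104 to 52199768) and Hoxc5 with Mir615 (chromosome 15, 102844438 to 102847860). Strand use in the counting is not given in the sources used here, so values of these genes are uncertain. The Hoxa11as row stood at 0.802 FPKM at E9.5 and 0.101 FPKM at E11.5 (q = 0.306 in the authors' deposited table), while Hoxa11 was listed at 0 and at 0.0221 FPKM. Of the 7 listed non-coding RNAs of the clusters, the other 6 are microRNA precursors and were at 0 in every column.

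Of all tested rows 3.71% rose between E9.5 and E11.5 and 1.92% fell, and the counts for the regulators of the clusters stand beside those shares. Of 25 tested Polycomb genes 2 rose between E9.5 and E11.5 and 0 fell: Cbx8, a chromodomain subunit of Polycomb repressive complex 1 that binds methylated histone H3, went from 0.0298 to 2.87 FPKM, and Phc1, another subunit, from 38.0 to 56.7 FPKM. Among 10 tested trithorax-side activators, Ash2l, a subunit of histone methyltransferase complexes, rose from 234 to 681 FPKM and Kdm6b, which removes the Polycomb histone mark, fell from 2.31 to 0.378 FPKM. Of 10 tested upstream inputs 2 fell and 0 rose. Cdx2, a caudal-type factor that activates central Hox genes and is also a hindgut marker, fell from 21.4 to 4.61 FPKM, and Fgf8, a signal of the tail end of the embryo, from 4.65 to 0.322 FPKM. Among the 8 tested Pbx, Meis and Pknox genes, whose products bind DNA together with Hox proteins, 0 were called in the authors' deposited table. At an unadjusted p under 0.05 there, 1 was lower, beside 5.39% of all tested rows. These 9 listed cofactors summed to 81.5 FPKM at E9.5 and 65.9 FPKM at E11.5. Genes next to the clusters were active: the median of 17 flanking genes was 22.2 FPKM at E9.5 and 33.2 FPKM at E11.5, and of 15 tested 3 rose (Calcoco2 from 4.49 to 33.2 FPKM, Snx10 from 4.62 to 23.9 FPKM, Snx11 from 23.5 to 36.7 FPKM) and 0 fell.

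E13.5f cells were compared with E11.5 cells next. The Hox gene with the highest level at E13.5f was the anterior gene Hoxd1 (chromosome 2, 74601036 to 74603199), listed at 0 at E11.5. It stood at 1.81 FPKM at E13.5f, with p = 0.00782 and q = 0.0594 in the authors' deposited table, and did not pass the threshold. With rows under 1 FPKM in both groups left out, its Benjamini-Hochberg adjusted p from the deposited p-values was 0.0537.

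Of 7 Hox genes with a completed test 0 were called, beside 12.0% of all tested rows, and 32 had no completed test; with rows under 1 FPKM in both groups left out the count was 1. At an unadjusted p under 0.05, 2 genes, Hoxd1 among them, were higher and 1 (Hoxa10) was lower at E13.5f in the authors' deposited table, beside 19.4% and 7.11% of all tested rows. Hoxa10 stood at 2.86 FPKM at E11.5 and 0.734 FPKM at E13.5f, a log2 ratio of -1.96 ± 0.78 (SE), with p = 0.0118 and q = 0.0779 in the authors' deposited table. Relative to the table median of 0.19 its ratio was -2.15, with an adjusted p of 0.0510 from the SE of the Cuffdiff test. Hoxb9 was at 0.259 and 1.08 FPKM (q = 0.217 in the authors' deposited table), Hoxb13 at 0.554 and 0.988 FPKM (q = 0.727 there) and Hoxc5 at 0.120 and 0.426 FPKM (q = 0.381 there). Hoxd10 was at 0.398 FPKM at E11.5 and listed at 0 at E13.5f (q = 0.205 in the authors' deposited table). Central genes remained low, with none at 1 FPKM and a sum of 1.2 FPKM at E13.5f against 0.565 FPKM at E11.5. Levels were higher at E13.5f in 13 Hox genes and lower in 12, beside 62.5% and 37.5% of all rows above 0 in a group, and the median log2(FPKM + 1) change was 0 for the Hox genes and 0 for all rows.

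Among 23 tested Polycomb genes 3 rose and 0 fell, beside 9.34% and 2.68% of all tested rows. The risers included Cbx8, from 2.50 to 34.8 FPKM, and Rbbp4, a histone-binding subunit, from 115 to 285 FPKM. By the same deposited test, 0 of 8 tested cofactors, 0 of 7 trithorax-side genes, 0 of 10 upstream inputs and 0 of 11 flanking genes were called. At an unadjusted p under 0.05 there, 1 cofactor and 5 upstream inputs were higher at E13.5f, and 0 trithorax-side or flanking genes passed in either direction. Of all tested rows 19.4% were higher and 7.11% lower at that threshold. Gonadal soma markers summed to 6.10 FPKM at E11.5 and 19.2 FPKM at E13.5f, with 15 of 17 above 0 in each group. Lhx2 rose from 1.24 to 10.9 FPKM, most of the E13.5f sum, and Emx2 from 0.0376 to 0.888 FPKM. Of 11 tested these 2 were called higher and 0 lower. Wt1, Nr5a1, Nr2f2 and Cyp11a1 were at lower levels at E13.5f and not called, and Sox9 and Tcf21 were listed at 0 there. The 13 markers of hindgut and other epithelium summed to 47.1 and 134 FPKM, with 9 and 13 above 0; Krt18 rose from 20.1 to 68.6 FPKM and Cldn6 from 4.51 to 24.9 FPKM, while Pax8 fell from 5.38 to 1.37 FPKM. Endothelial markers summed to 10.5 and 1.15 FPKM, with Esam falling from 8.81 to 0.894 FPKM and Tek from 1.43 to 0.111 FPKM, and Emcn and Tie1 listed at 0 in both groups. Among blood markers Hba-x fell from 8.60 to 0.173 FPKM. The part of these markers in the Hox values was not tested.

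E13.5m cells were compared with the same E11.5 libraries that enter the other stage comparisons. Hoxa10 fell, the 1 Hox gene called in any stage table. It stood at 2.93 FPKM at E11.5 and 1.09 FPKM at E13.5m, a log2 ratio of -1.43 ± 0.44 (SE), with p = 0.00131 and q = 0.0326 in the authors' deposited table. Of 7 Hox genes with a completed test that 1 was called, beside 4.88% of all tested rows and 1.94% called lower. Relative to the table median of 0.02 the ratio was -1.45, with an adjusted p of 0.0278, while the call did not hold at a threshold of 0.01. Hoxd1, listed at 0 at E11.5, stood at 0.400 FPKM at E13.5m, with q = 0.419 in the authors' deposited table. Hoxd12, a gene of digits and the genital tubercle, stood at 0.125 and 0.681 FPKM (q = 0.350 there), and Hoxc13, a gene of hair and nails, was listed at 0 and at 0.352 FPKM (q = 0.408 there). Hoxb13 was at 0.567 and 0.634 FPKM and Hoxd10 at 0.408 and 0.123 FPKM, with q = 0.980 and q = 0.702 in the authors' deposited table. Levels were higher at E13.5m in 13 Hox genes and lower in 12, beside 54.6% and 45.4% of all rows above 0 in a group.

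**Figure D4:**
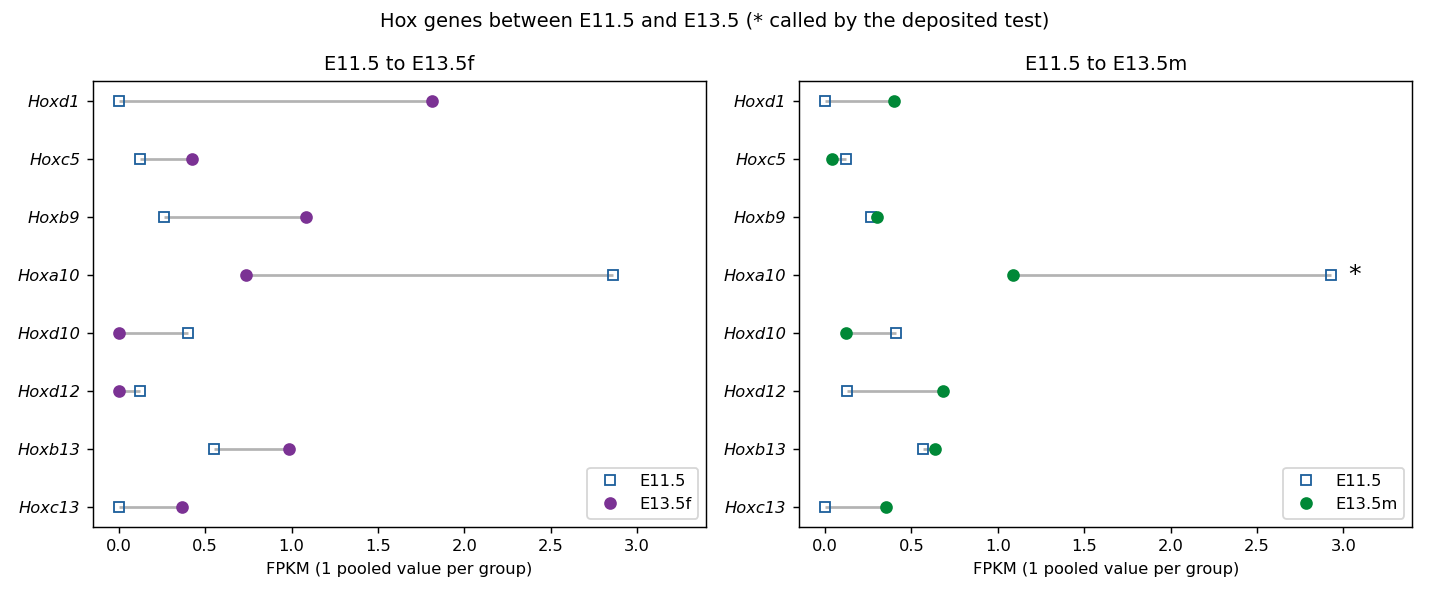
FPKM at E11.5 (open squares) and at E13.5f (left, filled circles) or E13.5m (right, filled circles) of 8 Hox genes with a completed test in either table, with 1 pooled value per group. The asterisk marks Hoxa10, which fell from 2.93 to 1.09 FPKM at E13.5m; Hoxd1 goes from 0 to 1.81 FPKM at E13.5f.

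Of 24 tested Polycomb genes 2 fell and 0 rose at E13.5m, beside 1.94% and 2.94% of all tested rows: Phc2 from 13.5 to 3.77 FPKM and Phf19, an accessory subunit of Polycomb repressive complex 2, from 24.1 to 7.68 FPKM. Of 8 tested upstream inputs, T, the mesoderm factor Brachyury, rose from 0.277 to 4.91 FPKM and Rarg, a retinoic acid receptor, fell from 19.4 to 6.88 FPKM. None of 8 tested cofactors, 8 trithorax-side genes or 10 flanking genes was called by the deposited Cuffdiff test. At an unadjusted p under 0.05 these lists held 2 lower cofactors, 1 higher and 1 lower trithorax-side gene and 0 flanking genes, beside 9.46% of all tested rows higher and 7.73% lower. Gonadal soma markers summed to 6.25 FPKM at E11.5 and 24.6 FPKM at E13.5m, with Amh rising from 0.129 to 4.01 FPKM and Rspo1 from 0.471 to 7.38 FPKM, and with Foxl2 and Wnt4 listed at 0 at E13.5m. Mesenchyme markers summed to 218 and 52.4 FPKM, with Sparc falling from 116 to 30.4 FPKM and Vim from 99.2 to 20.5 FPKM. Sparc and Vim made up most of both sums. The median of the 15 mesenchyme markers was 0.122 FPKM at E11.5 and 0.121 FPKM at E13.5m, with 11 and 13 above 0. Among epithelial markers, which summed to 48.2 and 48.6 FPKM, Krt19 rose from 0.20 to 4.08 FPKM and Pax8 fell from 5.52 to 0.655 FPKM. The endothelial marker Esam fell from 9.03 to 0.503 FPKM. The part of these markers in the fall of Hoxa10 was not tested.

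No deposited table sets E13.5m against E13.5f, so the log2 ratios against E11.5 were compared. Only Hoxa10 and Hoxb13 had a completed test with an SE in both tables. For Hoxa10 the log2 difference of E13.5m over E13.5f was 0.53 ± 0.90 (SE) and for Hoxb13 -0.67 ± 1.98 (SE), and neither passed a two-sided normal test on the SEs of the authors' deposited tables after adjustment (adjusted p 1.0 for each). Neither had an unadjusted p under 0.05, beside 3.76% of 10677 genes, and 0.169% of those genes passed after adjustment. On the scale of the first table Hoxd1 stood at 2.08 FPKM at E13.5f and 0.449 FPKM at E13.5m, Hoxb9 at 1.24 and 0.338 FPKM and Hoxd12 at 0 and 0.764 FPKM. Whether these 3 genes differ between E13.5f and E13.5m was not tested, because Hoxb9 had no completed test at E13.5m, Hoxd12 had none at E13.5f, and Hoxd1, at 0 at E11.5, had no SE.

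Cells lacking Tet1 were then set beside wild-type cells of E13.5. The titles of the wild-type and Tet1-KO libraries name no sex, and whether sex differed between these groups was not tested. The targeted gene was checked first: Tet1 RNA measured 6.36 FPKM in wild-type cells against 0.218 FPKM in the knockout (log2 ratio -4.87 ± 0.67, SE), and the FDR given in the authors' deposited table was 1.55e-10. The table lists 16 Hox genes, 3 anterior, 6 central and 7 posterior. Of the 23 genes it does not list, 5 were above 0 at E13.5f (Hoxa7, Hoxa11, Hoxc8, Hoxc9 and Hoxd3). The wild-type column was close to the E13.5f column: for the 14 Hox genes above 0 in both, the ratio had a median of 1.02 and ran from 0.740 to 1.26, so wild type and E13.5f cannot be taken as independent measurements.

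Hox levels were mostly lower in the knockout, in a table where most other rows were lower too. Of the 16 genes, 14 were above 0 in wild type and 6 in Tet1-KO, beside 92.6% and 87.3% of all rows, and the sums were 8.25 and 3.97 FPKM. Why the other Hox genes are not listed is not stated. If listing went with the wild-type level, lower knockout levels would be partly built in, which was not tested. The wild-type median was 0.308 FPKM for the Hox genes and 4.81 FPKM for all rows, so these shares are not like for like. The 1 call was Hoxb9, which fell from 1.11 FPKM to 0.0510 FPKM in the knockout (log2 ratio -4.44 ± 1.42, SE), where the authors' deposited table gives p = 0.00173 and FDR = 0.0349. That is 1 of 16, beside 6.16% of all rows called and 5.48% called lower. The median log2 ratio of this table was -0.38; relative to it Hoxb9 had a ratio of -4.07 and an adjusted p of 0.0847, so the call was lost, as it was at a threshold of 0.01. At an unadjusted p under 0.05, 2 genes were lower (Hoxb9 and Hoxc5) and 0 higher, beside 18.6% and 2.81% of all rows. By level, 12 Hox genes were lower and 2 higher in Tet1-KO, beside 72.0% and 28.0% of all rows above 0 in a group. The median log2(FPKM + 1) change was -0.25 for the Hox genes and -0.21 for all rows.

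Hoxd1 was not called. It measured 1.87 FPKM in wild-type cells and 0.682 FPKM in knockout cells (log2 ratio -1.46 ± 1.01, SE), with FDR = 0.392 in the authors' deposited table. Listed at 0 in Tet1-KO and above 0 in wild type were 8 genes (Hoxa3, Hoxa4, Hoxa13, Hoxc5, Hoxc6, Hoxc10, Hoxc13 and Hoxd9), a pattern found in 6.62% of all rows. Their wild-type levels ran from 0.0347 to 0.399 FPKM, the highest being Hoxc5, with p = 0.0419 and FDR = 0.212 in the authors' deposited table. The 6.62% is no like share, because 68.0% of all rows were at 1 FPKM or more in wild type, against 25% of the Hox genes. All 4 HoxC genes of the table were among these 8. Hoxd8 stood at 0.271 and 0.0251 FPKM, and Hoxa5 and Hoxa6 were listed at 0 in both. The 2 genes at a higher level in the knockout were posterior. Hoxb13 measured 1.02 and 1.94 FPKM (log2 ratio 0.92 ± 1.05, SE), with FDR = 0.643 in the authors' deposited table. Hoxa10 measured 0.759 and 0.874 FPKM (log2 ratio 0.20 ± 0.91, SE), with FDR = 0.976 there.

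**Figure D5:**
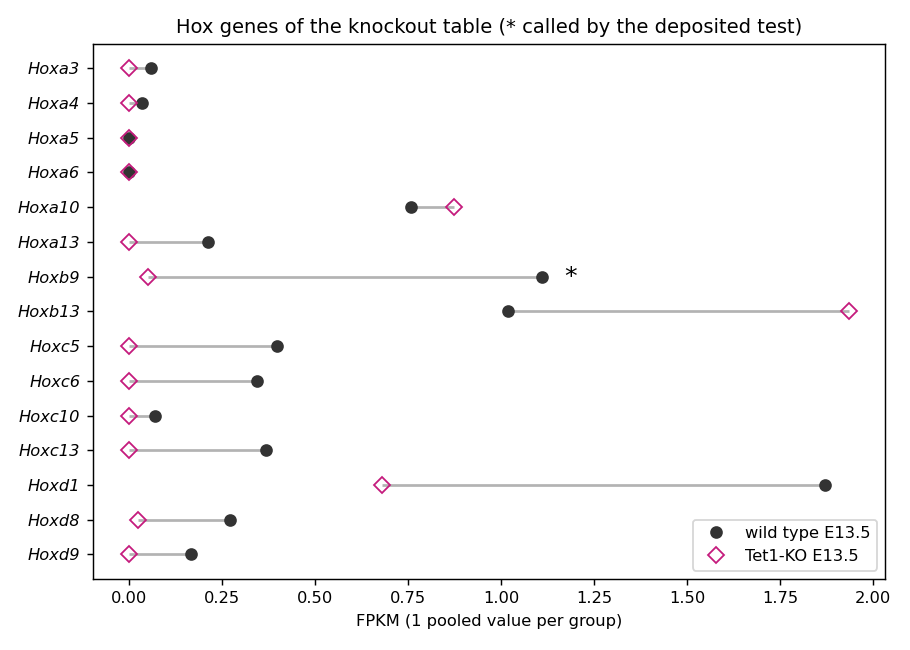
FPKM in wild type (filled circles) and Tet1-KO (open diamonds) at E13.5 of 15 Hox genes in the knockout table, with 1 pooled value per group. The asterisk marks Hoxb9, which fell from 1.11 to 0.0510 FPKM, and Hoxb13 (1.02 and 1.94 FPKM) and Hoxa10 (0.759 and 0.874 FPKM) are higher.

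Of 25 listed Polycomb genes 1 fell and 0 rose in the knockout, beside 5.48% and 0.677% of all rows: Cbx8 went from 36.3 to 7.23 FPKM, and of 10 trithorax-side genes Men1, the menin subunit of histone methyltransferase complexes, fell from 79.4 to 39.1 FPKM. Of 17 flanking genes Calcoco1, beside HoxC, fell from 31.8 to 14.8 FPKM. None of 8 cofactors or 13 upstream inputs was called in the authors' deposited table. At an unadjusted p under 0.05 there, 1 cofactor and 5 upstream inputs were lower, beside 18.6% of all rows. Of the 14 germ cell markers 2 rose (Sox2 from 23.7 to 67.3 FPKM and Tcfap2c from 122 to 226 FPKM) and 2 fell (Dazl from 1491 to 671 FPKM, and Mael, a piRNA pathway gene, from 463 to 131 FPKM). Gonadal soma markers summed to 19.6 FPKM in wild-type and 15.1 FPKM in knockout cells, all 14 above 0 in both, with Lhx2 falling from 11.4 to 1.74 FPKM. The 8 mesenchyme markers listed there summed to 254 and 362 FPKM. Their medians were 0.256 and 0.386 FPKM, and 2 of them were at 1 FPKM or more in each group. Vim rose from 91.7 to 207 FPKM, while Pdgfra fell from 0.20 to 0.00478 FPKM and Pdgfrb from 0.311 to 0.00584 FPKM. The part of these markers in the Hox values was not tested.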

How the data were processed

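PGC RNA from 400 to 5000 cells (E9.5, E11.5, E13.5m) or 500 to 2000 cells (wild type and Tet1-KO) was amplified as cDNA (2 to 70 ng) and sequenced, per the labels' protocols. Few cells and amplification add noise at low levels, where the Hox genes lie. Reads were handled with TopHat 1.3.1 and Bowtie against mm9 and quantified with Cufflinks and Cuffdiff (1.2.1 for the stage libraries, 1.0.3 for the knockout set), per the submitters' processing notes.

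Per the file headers, 4 Cuffdiff tables were deposited, each with a pooled FPKM value for every group. The authors' p-value and its adjusted form (q-value or FDR) stand beside it. The test statistic and the FDR of the knockout table, which can exceed 1, were treated as a score as deposited. Low values showed no whole-read steps, so depth is unknown, no counting interval was computed, and no test over libraries could be run. There were 0 unused columns of per-sample values.

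Groups follow the titles, ages and genotypes of the labels. Calls were the authors' own, at 0.05, over rows with a completed test. Log2 ratios were computed again from the FPKM values, and their SEs from the deposited statistic, or, for the knockout, from the normal deviate of the p-value where that exceeded 0.05. Rows listed at 0 in a group got no ratio. List changes are on the log2(FPKM + 1) scale, on which low genes move less. The difference between E13.5m and E13.5f used a two-sided normal test with Benjamini-Hochberg adjustment and takes the error of E11.5 into each ratio. The centred ratio subtracts the table's median over genes that reach 1 FPKM in each group. Scripts were tested on simulated data.

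The members and the lists (cofactors, Polycomb, trithorax-side, upstream inputs, homeobox relatives, flanking genes, non-coding RNAs, markers of 7 cell types) were chosen with earlier results of these data known. Every Hox gene could be named; some genes enter the counts and sums but their values are not reported here. From the lists the rule took at most 4 called members per comparison, besides Tet1 and the defining and called cell type markers. Alternatives were thresholds of 0.01 and of unadjusted p, adjustment computed again, a minimum of 1 FPKM, centring and a pseudocount of 0.1. Promoter windows were read from RefSeq (GRCm38.p6), and no coordinates were moved between builds. The tools were Python 3.11.15 with pandas 2.3.3, numpy 2.4.6, matplotlib 3.10.9 and scipy 1.17.1.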

Additional observations from a re-analysis of the deposited data

How the results depend on the processing

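Depth is unknown, and most Hox levels are too low for a completed test, so an uncalled Hox gene is not shown to be stable. No paired analysis was possible because each table holds 1 pooled value per group; for the same reason no library could be left out. Between E9.5 and E11.5, the count of called Hox genes was 0 and became 3 at an unadjusted p; the median log2(FPKM + 1) change of -0.02 became -1.09 over the 10 members at 1 FPKM or more and -0.34 when centred on the table median. Between E11.5 and E13.5f, the count was 0 and became 3 at an unadjusted p and 1 with rows at 1 FPKM or more; the median of 0 became 1.03 over 4 members at 1 FPKM or more and -0.19 when centred. Between E11.5 and E13.5m, the count was 1 and became 0 at a threshold of 0.01; the median of 0 became -0.91 for the 1 member at 1 FPKM or more. In Tet1-KO, the count was 1 and became 0 at a threshold of 0.01, 2 at an unadjusted p and 0 when centred, where only the 6 genes with an SE were tested; the median of -0.25 became -1.37 with a pseudocount of 0.1, -0.82 over 4 members at 1 FPKM or more and 0.13 when centred. The filters leave fewer members. Outside E13.5m, the filter lets members in mostly through the group where they are high, which largely fixes the direction of their median. The pseudocount changes the scale by construction. Centred medians subtract a median of log2 ratios, over genes at 1 FPKM or more in each group. They subtract it from changes on the log2(FPKM + 1) scale, where low genes move less. The centred medians thus mix scales and carry no result. The cause of the other shifts was not tested. The other 19 values of these counts and medians kept their side. Of 37 values for single genes 27 kept their side of the threshold, 7 passed it and 3 lost it, and none changed sign.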

Other observations

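Homeobox genes related to the Hox clusters in ancestry (the ParaHox, Evx, Mnx, Gbx, En and Meox genes) were at 0 for the most part at the early stages: of 12 listed, 8 were at 0 FPKM at E9.5 (En1, En2, Evx2, Gbx1, Gsx1, Gsx2, Mnx1 and Pdx1) and 7 at E11.5. At E13.5f 5 were at 0 and at E13.5m 6, and among the 6 that the knockout table holds, 1 was at 0 in wild type and none in Tet1-KO. Gbx2, a hindbrain gene, at 26.4 and 19.4 FPKM at E9.5 and E11.5, and Evx1, a gene of the primitive streak, at 4.80 FPKM at E9.5, stood above every Hox gene of those columns. Meox1, a gene of the somites, fell from 1.35 FPKM at E9.5 to 0.0352 FPKM at E11.5. It was the 1 call among 5 tested, beside 1.92% of all tested rows called lower. By the authors' deposited Cuffdiff tests, none of the 3 tested after E11.5 was called at E13.5f or at E13.5m. None of the 6 listed was called in Tet1-KO. Of all tested rows 12.0%, 4.88% and 6.16% were called in these comparisons. At an unadjusted p under 0.05, 1, 2 and 1 of these homeobox genes were lower, beside 7.11%, 7.73% and 18.6% of all tested rows.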
